A study of Mus musculus with 3 samples.

Results

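The genes described here encode the CD28 family and related costimulatory or coinhibitory receptors of T cells. They are Cd28, Icos, Ctla4, Btla, Tigit, Lag3, Havcr2, Cd160, Cd5 and Cd83. These 10 genes were chosen by name, with earlier results of these data known, out of 19751 that could be named on the array. Their RefSeq accessions matched 11 probes, 2 for Icos and 1 for each of the others. The data came from 3 Agilent 2-colour arrays, each with 1 polarised mouse T cell culture in the Cy5 channel and naive CD4 T cells in the Cy3 channel. The cultures were Th2, Th9 and induced regulatory T cells (iTreg).

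Naive CD4 T cells were taken from the spleens of 6- to 8-week-old C57BL/6 mice with magnetic beads, and they also served as the starting population of every culture. For 3 days all cultures received plate-bound anti-CD3e and soluble anti-CD28, each at 10 µg/ml. In the Th2 culture the concentration of IL-4 was 5 ng/ml and that of IL-2 was 1 ng/ml, with 2 µg/ml of antibody to IFN-γ. In the Th9 culture IL-4 was lower (1 ng/ml), IL-2 was 0.2 ng/ml, human TGF-β1 was present at 2 ng/ml, and the antibody to IFN-γ at 5 µg/ml. In the iTreg culture human TGF-β1 was present at 5 ng/ml and IL-2 at 0.4 ng/ml, with antibodies that block IFN-γ and IL-4, each at 5 µg/ml. No sample was activated without polarising cytokines, so a ratio over naive cells holds activation and polarisation together. Each culture had 1 array, so no test between conditions was possible and no p-value is given. The arrays lay on 1 slide, where culture and array position cannot be told apart, and without a dye swap a dye effect of a probe cannot be told apart from a difference to naive cells. Whether the naive channels held 1 extract is not given in the labels.

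A T cell needs a signal from its antigen receptor and a second signal from costimulatory receptors, of which CD28 is the best known. CTLA-4 competes with CD28 for the ligands CD80 and CD86 and restrains activation, and it is carried at high levels by regulatory T cells. BTLA, TIGIT, LAG-3, TIM-3 (encoded by Havcr2) and CD160 are further receptors that can dampen T cells. CD5 tunes antigen receptor signalling, and CD83 is an activation marker of dendritic cells, B cells and T cells.

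Spots well above background made up 48.9% to 50.9% of gene spots in the culture channels and 53.1% to 54.1% in the naive channels. The cultures had median spot signals of 99.0 to 104 and median backgrounds of 49.0 to 49.5. In naive cells these were 88.0 to 92.5 and 26.0 to 28.0. A gene was called measured when both channels were well above background, which held for 10944 genes on the Th2 array, 10781 on the Th9 array and 11119 on the iTreg array. Of 7 CD4 T cell markers on the array, all 7 were well above background in every channel, with a summed normalised intensity of 218144, 205422 and 312458 in Th2, Th9 and iTreg cells, against 441475 to 502530 in naive cells. A difference was called at 2-fold, a log2 value of 1. Errors (±) come from the scanner software's error model for each spot, on the log2 scale (n = 1 array), and the error of a difference is the root of the summed squares of both. The median SD over repeated spots of a probe was 0.072 to 0.085 log2 units.

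Of the 10 receptor genes, 8 were measured on all 3 arrays. Cd160 was measured on the iTreg array only, and Havcr2 on none. In Th2 cells 4 of 8 measured members were at least 2-fold higher than in naive cells and 0 were lower, beside 14.8% of all measured genes higher and 14.5% lower. In Th9 cells 3 of 8 were higher and 3 lower, beside 15.5% and 15.6% of all genes. In iTreg cells 4 of 9 were higher and 1 lower, beside 10.2% and 8.15% of all genes. The median log2 ratio of the measured members was 1.17 in Th2, 0.31 in Th9 and 0.36 in iTreg cells, where that of all measured genes was -0.02, -0.01 and -0.02. Ctla4, Lag3 and Cd83 were at least 2-fold higher in all 3 cultures, 3 of 8 members beside 7.29% of 10347 genes measured on every array. No member was 2-fold lower in all 3, beside 6.02% of genes. In mixed RNA of this kind, fewer cells of a type and less RNA per cell cannot be told apart.

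The split into higher and lower genes depended on how the arrays were scaled. Median centring in place of loess gave 2782 genes higher and 810 lower in Th2, 2313 and 1232 in Th9, and 910 and 1330 in iTreg. The loess counts were 1620 and 1591, 1673 and 1684, and 1137 and 906. The median log2 ratio of measured genes moved by 0.33, 0.11 and -0.21 with that change. Among the members the Th2 ratio of Cd5, the brightest spot, moved most (-0.22 with loess and 1.32 with median centring).

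**Figure D1:**
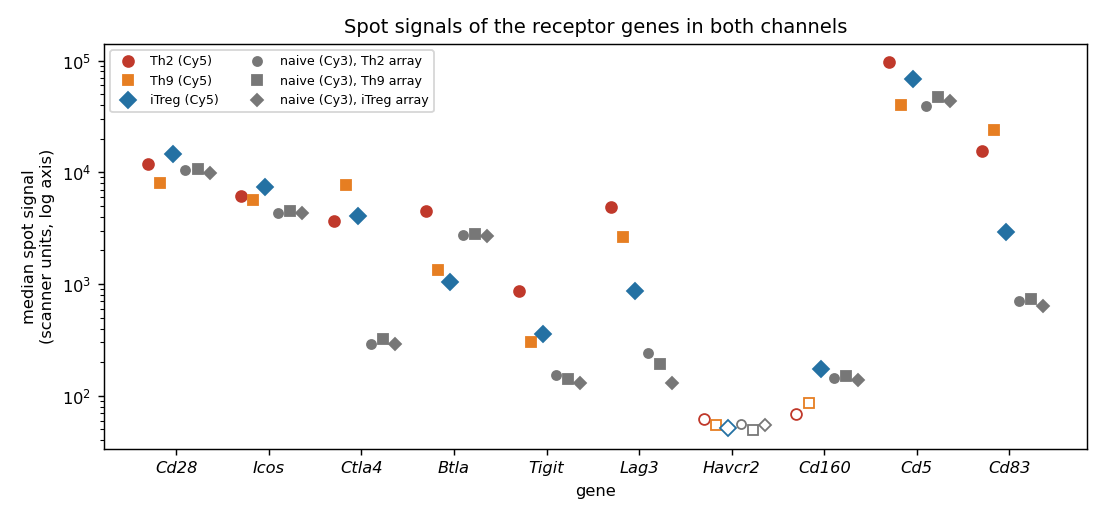
Median spot signal (scanner units, log axis) of each receptor gene in the culture channel (Cy5, coloured) and the naive channel (Cy3, grey) of the 3 arrays, with open symbols for spots not well above background. Ctla4, Lag3 and Cd83 stand far above naive in every culture, while Cd28, Icos and Cd5 are bright in naive cells already. No background was subtracted, and the channels were not yet scaled to each other.

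The costimulatory receptor gene Cd28 was already bright in naive cells. Its spot signal was 11992 in Th2, 7982 in Th9 and 14608 in iTreg cells, against 10469.5, 10637 and 9879 in the naive channels of the same arrays. After loess the log2 ratio was -0.69 ± 0.21 in Th2, -1.20 ± 0.23 in Th9 and -0.01 ± 0.20 in iTreg cells. The Th9 culture was thus 2.30-fold lower than naive cells, and iTreg cells stood at the naive level within the spot error. With median centring the Th9 value was -0.60, short of 2-fold, and the Th2 and iTreg values turned positive (0.23 and 0.05). The order of levels was naive, iTreg, Th2 and Th9 from high to low. Of the neighbours in that order, the gap between iTreg and Th2 alone exceeded 2 errors.

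Icos encodes the inducible costimulator, a CD28 relative that supports helper T cells once they are activated. Its brighter probe had a signal of 6128.5 in Th2, 5649 in Th9 and 7409 in iTreg cells, against 4319, 4496.5 and 4337 in naive cells. The log2 ratios were -0.12 ± 0.20, -0.27 ± 0.21 and 0.36 ± 0.21, and 0.54, 0.14 and 0.26 with median centring. The other probe gave 0.46, 0.66 and 0.55, so the probes had opposite signs in Th2 and Th9 and the same sign in iTreg. None of these values reached 2-fold, and no neighbours in the order of levels differed by more than 2 errors.

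Ctla4, the gene of the inhibitory counterpart of CD28, was among the genes with the highest ratios of each array. Its signal was 3656 in Th2, 7722.5 in Th9 and 4104 in iTreg cells, against 292 (Th2 array), 325.5 (Th9 array) and 293.5 (iTreg array) in naive cells. The log2 ratios were 3.28 ± 0.39 (9.70-fold) in Th2, 4.18 ± 0.47 (18.2-fold) in Th9 and 3.52 ± 0.42 (11.4-fold) in iTreg cells. Each lay above those of 98.6%, 99.5% and 99.5% of measured genes. Th9 cells had the highest level of the cultures, and the iTreg level exceeded that of Th2 by 0.24 ± 0.57 (-0.37 with median centring). Neighbouring cultures differed by less than 2 errors.

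Btla encodes an inhibitory receptor that binds HVEM, a member of the TNF receptor family. The spot signal was 4470.5 in Th2, 1328 in Th9 and 1041 in iTreg cells, against 2741.5, 2788.5 and 2667 in naive cells. In both cultures with TGF-β the signal was below every naive value, and in Th2 cells it was above. The log2 ratio was 0.18 ± 0.20 in Th2, -1.44 ± 0.25 (2.72-fold lower) in Th9 and -1.58 ± 0.25 (2.99-fold lower) in iTreg cells. Over all alternatives of the processing it stayed at -1.25 or lower in Th9 and at -1.58 or lower in iTreg, and between 0.18 and 0.74 in Th2. Th9 and iTreg did not differ beyond their errors.

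The promoters of Ctla4 and Btla are shown because these members had the highest mean ratio and the most negative mean ratio over the 3 cultures. RefSeq's table for GRCm38.p6 held promoters of 6 of the 10 genes, with 250 bases before and 50 bases after the annotated start. Ctla4 lies at chr1:60908775-60909074 on the + strand and Btla at chr16:45224087-45224386 on the + strand. Capitals mark matches to the motifs searched on both strands.
Ctla4: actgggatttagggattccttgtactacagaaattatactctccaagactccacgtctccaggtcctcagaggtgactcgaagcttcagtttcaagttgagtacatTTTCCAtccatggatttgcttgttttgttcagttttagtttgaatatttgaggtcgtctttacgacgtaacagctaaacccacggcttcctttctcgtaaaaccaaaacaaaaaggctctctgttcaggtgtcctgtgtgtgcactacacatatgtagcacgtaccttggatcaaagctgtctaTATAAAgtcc
Btla: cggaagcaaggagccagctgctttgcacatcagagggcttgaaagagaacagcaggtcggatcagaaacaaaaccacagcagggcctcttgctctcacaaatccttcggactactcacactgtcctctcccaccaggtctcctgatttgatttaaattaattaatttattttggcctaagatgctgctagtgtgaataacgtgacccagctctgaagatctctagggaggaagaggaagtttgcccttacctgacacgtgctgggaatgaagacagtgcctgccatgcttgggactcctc
The motifs were AP-1 (TGANTCA), the NFAT core (TGGAAA), STAT5 (TTCNNNGAA), STAT6 (the same with 1 more N), the core of the TATA box (TATAAA), SMAD (CAGAC, added after the values had been seen) and the NF-κB consensus. In the Ctla4 window TGGAAA occurred once, on the opposite strand at bases 107 to 112, counted from 1 at the 5′ end. TATAAA occurred once, at bases 291 to 296, which is 40 bases after the annotated start and not before it. None of the 7 motifs occurred in the Btla window, and no 2 matches overlapped. Of all 32851 promoters, TGGAAA was held by 21.4%, TATAAA by 13.6%, the AP-1 motif by 7.81%, the STAT5 motif by 8.30%, the STAT6 motif by 6.95%, the SMAD motif by 49.6% and the NF-κB consensus by 8.46%.

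Lag3 encodes a CD4-like receptor that binds MHC class II molecules and inhibits T cells. Its signal was 4860.5 in Th2, 2663 in Th9 and 873 in iTreg cells, against 242.5, 193 and 130 in naive cells of the same arrays. All cultures were far above naive cells, with the Th2 signal highest and the iTreg signal lowest. The log2 ratio was 3.91 ± 0.45 (15.0-fold) in Th2, 3.46 ± 0.43 (11.0-fold) in Th9 and 2.39 ± 0.36 (5.24-fold) in iTreg cells. The gaps between neighbouring cultures, 0.45 ± 0.62 from Th2 to Th9 and 1.07 ± 0.56 from Th9 to iTreg, were within 2 errors.

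The naive signal of Lag3 was less steady than that of the other members. Its normalised level ranged 1.79-fold over the 3 naive channels, with an SD of 0.42 log2 units, larger than for 99.7% of genes. For the other 9 members the range was 1.03-fold to 1.21-fold. The naive signal was highest on the array with the brightest Lag3 culture signal and lowest on the one with the dimmest. The same array was highest in both channels for 5 of 7 members whose culture level varied at least 2-fold, and for 54.8% of 1912 such genes (44.4% in unnormalised signals). Among 8435 genes that varied less the share was 41.8% (36.2% in unnormalised signals). Among 319 genes whose culture level varied at least 4-fold it was 69.9% (57.1% in unnormalised signals), with Lag3 and Cd83, the 2 members among them, both included. The share was thus larger where the cultures differed more, and the part of this pattern in the ratios, leakage between the dye channels included, was not tested. With the mean naive level of the 3 arrays in place of each array's own, the Lag3 ratio became 4.31 in Th2, 3.50 in Th9 and 1.95 in iTreg cells.

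Tigit encodes an inhibitory receptor for the poliovirus receptor CD155. The signal was 871 in Th2, 303 in Th9 and 355 in iTreg cells, against 154 (Th2 array), 140.5 (Th9 array) and 131 (iTreg array) in naive cells. Every culture was above all naive channels, with Th2 well apart from the other cultures. The log2 ratio was 2.15 ± 0.33 (4.44-fold) in Th2, 0.88 ± 0.26 in Th9 and 1.13 ± 0.27 (2.18-fold) in iTreg cells. These spots were dim, and their ratios moved with the background correction. The Th9 value passed 2-fold with the deposited ratio (1.37), the deposited series values (1.39), plain subtraction (1.17) or a smaller offset (1.11), and the iTreg value fell short of it with median centring (0.93).

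Cd160 encodes a receptor for HVEM that is known from NK and CD8 T cells. Its signal was 68.0 in Th2, 87.0 in Th9 and 174 in iTreg cells, against 145.5 (Th2 array), 149 (Th9 array) and 138 (iTreg array) in naive cells. The Th2 and Th9 spots were not well above background, and the iTreg spot was. Set against the dimmest signal well above background on the Th2 array, the naive level of Cd160 was 1.70-fold higher. In Th9 the spot's own level was above that array's dimmest such signal. It gave 1.65-fold lower than naive, an estimate and not a minimum. The normalised log2 levels were 6.36 and 6.75 in these cultures and 7.32 and 7.47 in their naive channels. The log2 ratios were -0.96 ± 0.56 in Th2 and -0.72 ± 0.38 in Th9, each within 2 errors of naive. Dye bias in these values was not tested. In iTreg cells the log2 ratio was 0.14 ± 0.24 (-0.01 with median centring). Set against the dimmest signal well above background on the Th2 array, the iTreg level was 1.96-fold higher. Against the Th9 spot's own level it was 1.71-fold higher, again an estimate and not a minimum. Compared through their ratios against naive, iTreg differed from Th2 and from Th9 by less than 2 errors each.

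Markers of NK and CD8 T cells had a lower summed level in all 3 cultures. Among measured ones 1 was 2-fold higher and 7 lower of 10 in Th2, 0 and 6 of 9 in Th9, and 1 and 6 of 9 in iTreg cells. The shares of all measured genes were 14.8% and 14.5% in Th2, 15.5% and 15.6% in Th9, and 10.2% and 8.15% in iTreg cells. Of 14 such genes on the array 10 were well above background in Th2, 9 in Th9 and 9 in iTreg cells, against 13 in each naive channel. Their summed normalised intensity was 23795, 13515 and 17538 in Th2, Th9 and iTreg cells, against 86561 to 91900 in naive cells. Cd8a was not well above background in any channel, and Klrb1c, Ncr1 and Klrk1 were above it in naive cells only. Cd8b1 was well above background in every channel, at 0.06, -0.80 and -0.30 in Th2, Th9 and iTreg cells. The marker that was 2-fold higher was Gzmb in Th2 (2.36) and Ctsw in iTreg cells (1.33). The part of such cells in the Cd160 and Lag3 signals was not tested.

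Havcr2, which encodes TIM-3, had signals of 62.0 in Th2, 55.0 in Th9 and 51.5 in iTreg cells, against 56.0, 49.0 and 54.5 in naive cells. All 6 values were not well above background, so no ratio is given. TIM-3 is best known from Th1 cells and exhausted CD8 T cells.

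Cd5, a scavenger receptor family member that restrains antigen receptor signals, had the brightest spot of the set. The signal was 96520 in Th2, 40394 in Th9 and 68573 in iTreg cells, against 39681, 47619 and 43155 in naive cells. In Th9 cells it was below the naive signal of its own array, while in Th2 and iTreg cells it was above before scaling. After loess the log2 ratio was -0.22 ± 0.21 in Th2, -1.57 ± 0.25 (2.96-fold lower) in Th9 and -0.27 ± 0.21 in iTreg cells. With median centring these became 1.32, -0.43 and 0.15, so the sign in Th2 and iTreg and the 2-fold call in Th9 depended on the scaling. Th9 was the lowest culture under both. In the order of levels naive, Th2, iTreg and Th9, the gap between iTreg and Th9 alone exceeded 2 errors.

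Cd83 encodes an immunoglobulin family protein that appears on activated lymphocytes and is also known from regulatory T cells. The signal was 15554.5 in Th2, 24189 in Th9 and 2914 in iTreg cells, against 707, 730 and 634.5 in naive cells. The iTreg culture was well below both cultures with IL-4 and still above naive cells. The log2 ratio was 3.91 ± 0.44 (15.1-fold) in Th2, 4.47 ± 0.49 (22.2-fold) in Th9 and 1.95 ± 0.28 (3.85-fold) in iTreg cells. Th9 and Th2 did not differ beyond 2 errors, whereas the gaps from Th2 to iTreg and from iTreg to naive did.

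Since Cd83 is also a marker of B and dendritic cells, markers of these cells were set beside it. Of 8 B cell markers 2 (Cd79b and Cd22) were well above background in the cultures and in naive cells. Ms4a1, Cd79a, Pax5, Blk and Fcer2a were among those above it in no channel. The summed intensity of the list was 2843 to 2983 in the cultures and 1375 to 1406 in naive cells. Cd79b was at 2.08, 2.03 and 1.83 in Th2, Th9 and iTreg cells, and Cd22 at -0.77, -0.85 and -0.01. Of 11 myeloid and dendritic markers 6 were above background in each culture, against 8 to 10 in naive cells. Their summed intensity was 35407, 33320 and 59289 in Th2, Th9 and iTreg cells, against 65909 to 75410 in naive cells. The part of these cells in the Cd83 signal was not tested.

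**Figure D2:**
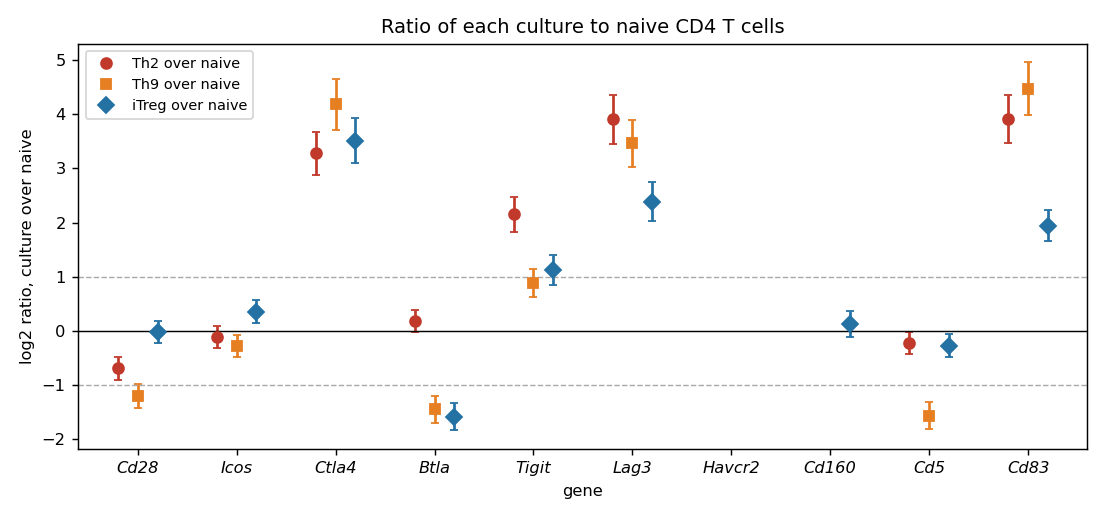
Log2 ratio of each culture over naive CD4 T cells after loess, with the scanner software's error as bars (1 array per culture) and dashed lines at 2-fold. Ctla4, Lag3 and Cd83 lie above 1 in all cultures, Btla lies below -1 in Th9 and iTreg only, and Havcr2 and the Th2 and Th9 values of Cd160 are not shown because a channel was not well above background.

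**Figure D3:**
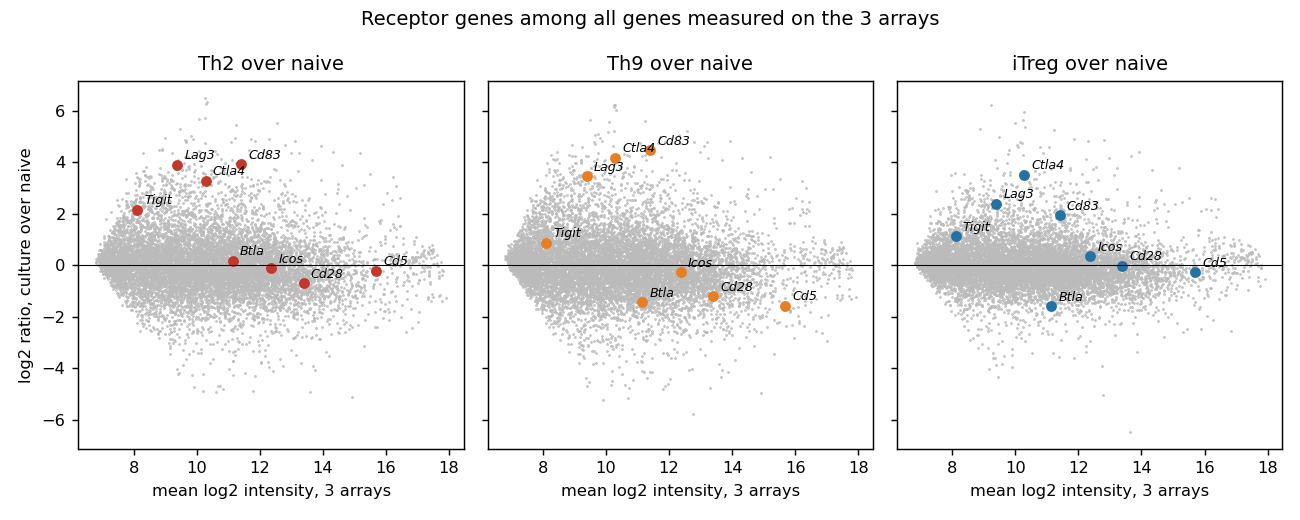
Log2 ratio of culture over naive (y axis) against the mean log2 intensity over the 3 arrays (x axis) for 10347 genes measured on every array (grey), with the 8 receptor genes measured on every array in colour. Cd5 and Cd28 sit at the bright end, where few genes lie, and Tigit at the dim end.

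The cultures were then compared with each other through their ratios against naive, which removes a dye effect of a probe. The comparisons all go through the naive channels, and pairs of them share a culture array. The range of the log2 ratio over the 3 cultures reached 1 for 6 of 8 members, where it did so for 17.8% of all genes measured on every array. Its median was 1.31 for the members and 0.49 for all genes. Cd83 had the widest range (2.52, wider than for 98.8% of genes), followed by Btla (1.76) and Lag3 (1.52). Icos had the narrowest (0.63).

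Between Th9 and Th2, which both received IL-4, 0 of 8 members were 2-fold higher and 3 were lower in Th9, beside 1.28% of genes higher and 1.38% lower. These were Btla (-1.63 ± 0.32), Cd5 (-1.35 ± 0.32) and Tigit (-1.27 ± 0.42). No more than 0.76% of genes had a lower value than any of these. Ctla4 was higher in Th9 by 0.90 ± 0.61 (1.05 when the Cy5 channels were compared directly). All 3 lower members stayed below -1.2 under every alternative. With median centring 102 genes were higher and 244 lower.

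Between iTreg and Th2, 0 of 8 members were 2-fold higher and 4 lower in iTreg, beside 6.86% of genes higher and 6.69% lower. The 4 were Cd83 (-1.97 ± 0.52), Btla (-1.76 ± 0.33), Lag3 (-1.52 ± 0.58) and Tigit (-1.02 ± 0.42). Tigit lay at the threshold and gave -0.99 with the deposited ratio. Lag3 ranged from -2.36 in the direct comparison of the Cy5 channels to -1.11 with the deposited ratio. Cd28 was higher in iTreg by 0.67 ± 0.29, but -0.18 with median centring, and Cd5 stood at -0.05 ± 0.29, but -1.17 with median centring. Icos was higher in iTreg by 0.47 ± 0.29, but -0.28 with median centring. That scaling gave 239 genes higher and 2829 lower.

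Between iTreg and Th9, which both received TGF-β, 2 of 8 members were 2-fold higher in iTreg, namely Cd5 (1.30 ± 0.32) and Cd28 (1.19 ± 0.31), beside 6.8% of genes. Cd83 (-2.52 ± 0.56) and Lag3 (-1.07 ± 0.56) were lower, beside 6.29% of genes. With median centring Cd5 and Cd28 stood at 0.58 and 0.65, still higher in iTreg but short of 2-fold. Lag3 stood at -0.84 with the deposited ratio and at -0.87 with plain subtraction. Btla (-0.14 ± 0.36) and Tigit (0.24 ± 0.37) differed by less than their errors. Median centring gave 320 genes higher and 1765 lower.

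**Figure D4:**
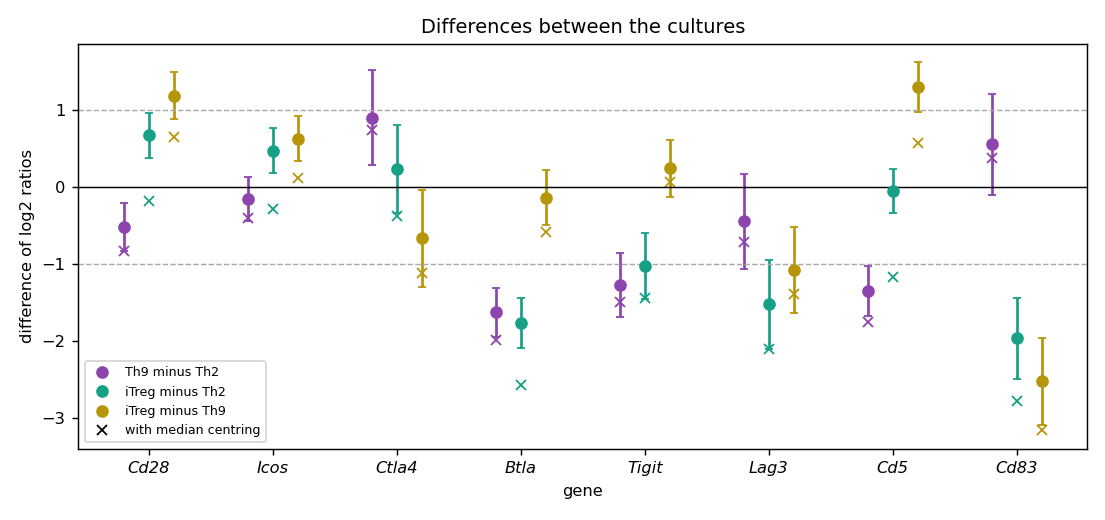
Difference of log2 ratios between cultures for the 8 receptor genes measured on every array, with the combined error of the 2 spots as bars, crosses for the same value with median centring and dashed lines at 2-fold. Btla and Tigit are lower in both Th9 and iTreg than in Th2, and Cd83 is lower in iTreg than in either other culture.

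**Figure D5:**
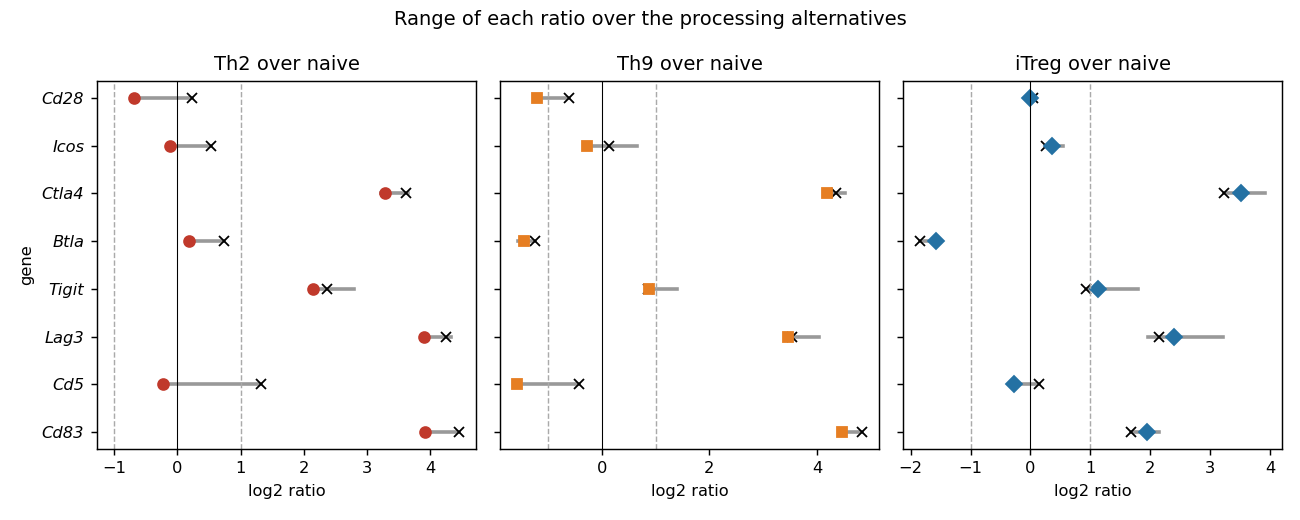
Log2 ratio of each culture over naive (coloured symbol) with its lowest and highest value over the processing alternatives (grey line) and the value with median centring (cross); the x axes differ between panels and dashed lines mark 2-fold. The ratios of Ctla4, Lag3 and Cd83 stay above 1 throughout, while Cd5 spans -0.23 to 1.32 in Th2.

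Genes of the same pathway were described from lists by their counts and medians, beside the shares of all genes given above. In the list of antigen receptor and CD28 signalling partners, 0 of 20 measured genes were 2-fold higher and 12 were lower in Th2, 0 and 12 in Th9, and 0 and 4 in iTreg cells. The medians were -1.24, -1.28 and -0.70. Prkcq, a protein kinase C isoform recruited by CD28 signals, stood at -2.09 ± 0.28, -2.21 ± 0.29 and -1.05 ± 0.22, and the PI3 kinase regulator Pik3r5 at -1.89, -1.70 and -1.66. With median centring the list's medians were -0.37, -0.61 and -0.59.

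Among ligands of the receptors, 2 of 8 measured genes were higher and 1 lower in Th2, 3 and 0 of 8 in Th9, and 2 and 0 of 7 in iTreg cells. The medians were 0.03, 0.09 and 0.15. Lgals3, which encodes galectin-3, a reported ligand of LAG-3, stood at 3.28 ± 0.38, 3.72 ± 0.41 and 4.14 ± 0.45. H2-Ab1, an MHC class II chain, was at 3.31, 3.32 and 3.32, whereas H2-Aa, the gene of its partner chain, was not well above background in any culture and was above it in every naive channel.

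Of other inhibitory or paired receptors 3 were higher and 8 lower of 18 in Th2, 2 and 8 of 17 in Th9, and 5 and 3 of 17 in iTreg cells, with medians of -0.87, -0.51 and 0.11 (-0.19, -0.41 and 0.16 with median centring). Cd200, a ligand for an inhibitory receptor of myeloid cells, was at 2.87 ± 0.34, 1.59 ± 0.26 and 1.46 ± 0.25. Pdcd1lg2 was at 2.03, 1.23 and 2.07. Cd101, an inhibitory surface protein, was at 0.60 ± 0.22, 0.40 ± 0.21 and 2.97 ± 0.36, so the iTreg value alone passed 2-fold. Cd96, which shares the ligand CD155 with TIGIT, was at -3.04 ± 0.37, -2.10 ± 0.29 and 0.11 ± 0.20. Klrg1, an inhibitory receptor of NK and effector T cells, was at -2.55, -2.91 and -2.89. Vsir, the gene of VISTA, was at -1.59, -2.34 and -0.39 (-0.95, -2.06 and -0.13 by its other probe).

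Of 11 measured genes for CTLA-4 trafficking and shedding of LAG-3, 1 was higher and 1 lower in Th2, 1 and 2 in Th9, and 0 and 0 in iTreg cells, beside shares of all genes of 14.8% and 14.5%, 15.5% and 15.6%, and 10.2% and 8.15%. The medians were -0.41, -0.29 and -0.07, and 0.06, 0.07 and -0.08 with median centring. Rab11a, a GTPase of recycling endosomes, was at 1.17, 1.24 and 0.71, and the adaptor gene Lax1 at -1.47, -1.35 and -0.14. Of the intracellular negative regulators 2 were higher and 5 lower of 22 in Th2, 1 and 4 of 23 in Th9, and 4 and 1 of 23 in iTreg cells. Dgka, a diacylglycerol kinase that limits Ras signalling, was at -2.13, -2.09 and -0.76, and the ubiquitin ligase gene Rnf128 (GRAIL) at 1.57, 1.28 and 0.56.

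In the list of transcription factors linked to coinhibitory receptors, 6 were higher and 8 lower of 19 in Th2, 6 and 5 of 17 in Th9, and 8 and 3 of 19 in iTreg cells, with medians of -0.68, -0.28 and 0.57. These were -0.47, -0.04 and 0.29 with median centring, and the Th2 median was -1.02 with the deposited ratio. Nfil3 was at 4.92 ± 0.53, 4.27 ± 0.47 and 2.68 ± 0.34, and Irf4 at 3.87, 3.56 and 3.59. The nuclear receptor gene Nr4a2 was at 2.63, 3.06 and 2.17. Tox, a factor of exhausted T cells, was at -2.71 ± 0.34, -2.43 ± 0.32 and -0.50 ± 0.21. Tbx21, the Th1 factor, was at -2.08, -2.66 and -3.05.

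Genes whose pattern lay nearest to that of Ctla4 over the 3 ratios, by Euclidean distance, were Slc2a6 (0.39 log2 units), Zbtb32 (0.44) and Rtkn (0.53). Nearest to Cd83 were Tube1 (0.31), Tpx2 (0.36) and Akr1c18 (0.46). With 3 arrays such a likeness is a description only.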

How the data were processed

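Expression was measured on 3 Agilent 2-colour arrays (n = 1 per culture). Per the file headers, the deposited intensity values (median spot and background signals, and processed signals) were quantified with Agilent Feature Extraction 11.0.1.1, whereas 9.3.2.1 is the version in the submitters' processing notes. The deposited log10 ratio is Cy5 over Cy3 with its error, per the file headers. The deposited log2 series values equalled log2 of the deposited processed Cy5 over Cy3 signal, raised by a constant of 0.056 (Th2), 0.021 (Th9) and 0.037 (iTreg), within 0.001 for 99.6% to 99.7% of probes. Their direction is Cy5 over Cy3, the column medians are 0.14, 0.26 and 0.28, and the reason for the constant is unknown.

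Median intensities were background-corrected by normexp (offset 50) and normalised by loess with limma 3.58.1 in R 4.3.3 (with data.table, version 1.17.8), with control and outlier spots at weight 0. Outlier spots were then dropped and spots of a probe averaged. The remaining steps used Python 3.11.15, pandas 2.3.3, numpy 2.4.6 and matplotlib 3.10.9. Accessions without versions were matched to RefSeq genes of GRCm38.p6, which named 26055 of 39429 probes (66.1%). The array design is on mm9, so no gene coordinates are given, and promoter sequences are RefSeq's for GRCm38.p6. The probe with the highest mean intensity stood for a gene. Levels between arrays were scaled by Aquantile.

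The number of arrays limits the precision. The normalisation was run on simulated arrays in which few probes were changed. The share of changed genes was far larger in the real arrays, so the simulation cannot decide between loess and median centring. The receptor genes and the gene lists were chosen with earlier results of these data known. All members were named, and from each pathway list up to 3 genes each way by mean ratio among those measured on all arrays and 2-fold in any. List genes shown are examples from that selection, and some genes it takes are not reported here. Alternatives were median centring, the deposited ratio, an offset of 10, plain subtraction, the mean or each of a gene's probes, direct comparison of Cy5 channels, the mean naive level, no background filter and the deposited series values.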

Additional observations from a re-analysis of the deposited data

Results flagged for a closer look

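The Icos ratios of iTreg and Th9 cells against naive had opposite signs, each beyond its spot error but less than 2 errors, at log2 0.36 in iTreg and -0.27 in Th9. The difference was not tested, since each culture had 1 array. The other Icos probe was positive in both (0.55 in iTreg and 0.66 in Th9), as were the values with median centring (0.26 in iTreg and 0.14 in Th9) and the mean of the probes (0.45 in iTreg and 0.20 in Th9).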

How the results depend on the processing

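Of 279 member values recomputed under the alternatives, 16 lay on another side of 2-fold than the loess value, 8 of them with median centring. No loess value of at least 2-fold changed sign. These 16 belong to 12 of 49 values. Of all 279 recomputed values, 47 moved from the loess value by more than its error. With median centring Th2 over naive had 2782 genes higher and 810 lower, Th9 minus Th2 had 244 lower, iTreg minus Th2 had 239 higher and 2829 lower, and iTreg minus Th9 had 320 higher and 1765 lower. With the same setting 1 member was 2-fold lower in Th9 than naive (Btla), and 0 members were higher in iTreg than Th9. Comparing the Cy5 channels directly gave 1 member higher in Th9 than Th2 (Ctla4). With the deposited ratio 1 member (Cd83) was lower in iTreg than Th9, and 1 with plain subtraction. The cause of these moves was not tested. Of 66 recomputed member counts 61 stayed within 1.5 times, as did 71 of 78 gene counts. Of 90 recomputed list medians 13 moved, among them the negative regulators in Th2 and Th9 (-0.03 and -0.08 with median centring). No replicate could be left out, and no paired analysis was possible because each culture had 1 array. Ratios of Havcr2 and of Cd160 in Th2 and Th9 are limited by signal over background.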
